A study of Zea mays with 12 samples.

Results

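Ribosome-protected fragments (RPFs, or footprints) were set against mRNA in roots of maize seedlings exposed to tunicamycin (TM) for 12 hr. All libraries taken at 12 hr were used, 4 of the 12 libraries of the series, and they came from 2 root lysates. Each lysate gave 1 ribo-seq library and 1 RNAseq library, which share a replicate number in the labels and are called lysate 1 and lysate 2 here. The plants were of the inbred line B73 and received TM at 5 µg/ml in DMSO. The other 8 libraries are pairs of the same kind from other lysates, after 0 and 6 hr of TM. Lysate numbers are used anew at each time and do not mean the same lysate. The methods describe the lysates as biological duplicates and RNA for both library types as aliquots of 1 lysate. A mock-treated group was not analysed here, so time in culture and time in TM cannot be told apart. Roots were ground whole, so the ratio of a gene is an average over all root cells.

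An mRNA that is being translated carries ribosomes, and each ribosome shields a short piece of it from RNase. Counting these pieces gives the number of ribosomes on the coding sequences of a gene, and dividing by the reads of the same coding sequence in total RNA gives ribosomes per mRNA, often called translational efficiency. Because the same coding sequence stands above and below the line, its length cancels. TM blocks N-glycosylation of proteins in the endoplasmic reticulum (ER). Misfolded proteins then collect there and set off the unfolded protein response (UPR), in which ER chaperones, folding enzymes and components of ER-associated degradation are induced. The comparison asks which mRNAs were rich or poor in footprints after 12 hr of TM, and how far the ranking of genes by this ratio differed between the lysates.

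The 12 hr ribo-seq libraries held 3056533 and 12328304 gene counts in lysates 1 and 2, a 4.03-fold difference in depth, and the RNAseq libraries held 6949768 and 4827189. The share of the 10 largest genes was 3.00 to 3.95% in ribo-seq and 6.14 to 6.16% in RNAseq. Counts were divided by the total of their library to give CPM, the counts per 1e+06 counts of the library, so a ratio of 1 means an equal share of both libraries and says nothing of the total amount of translation. Of 39498 gene identifiers, 33254 had a count in at least 1 of these 4 libraries. The 16968 with a mean of at least 5 CPM over the 4 libraries were tested, so a gene low in 1 library type could pass through the other. Duplicate libraries ranked these genes with a Spearman correlation of 0.949 in ribo-seq and 0.943 in RNAseq. Green-tissue and other cell type markers could not be checked, because the identifiers were not paired with gene names in the tables used here.

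At 12 hr, 2749 of the 16968 genes (16.2%) were rich in footprints and 3432 (20.2%) were poor in footprints, while 10787 did not pass the test (edgeR quasi-likelihood test of ribo-seq against RNAseq with the lysate as a term, Benjamini-Hochberg adjusted p under 0.05 over all tested genes). The rich genes were closer to the average than the poor genes. The median fitted log2 ratio was 0.81 for the rich genes and -1.33 for the poor genes, against -0.07 for all tested genes. A fitted difference of 2-fold or more was reached by 754 of the rich genes and 2441 of the poor genes. Both lysates lay above a ratio of 1 for 2748 of the 2749 rich genes and below it for all 3432 poor genes. The genes were called from these same lysates, so that agreement follows in large part from the call. Over all tested genes, 80.6% lay on the same side of 1 in both lysates. The numbers of rich and poor genes rest on both lysates. With only 1 lysate of 12 hr in the fit, 1110 genes were rich and 1619 poor without lysate 1, and 934 rich and 1380 poor without lysate 2. The balance of rich and poor genes also rests on the scaling. With libraries scaled to equal counts of actin, as in the methods of the study, the median log2 ratio of all genes moved by -0.59 and the counts became 293 rich and 7514 poor. The order of genes within a lysate is the same under either scaling. The filter and the block also moved these counts: with a mean of at least 20 CPM there were 2471 rich and 1759 poor genes, which turned the balance, and without the replicate block there were 1717 rich and 2557 poor.

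The ratio spread further downward than upward in both lysates. In lysate 1 the middle gene had a log2 ratio of -0.10, the lower and upper quartiles were -0.71 and 0.41, and the points below which 5% and 95% of the genes lay were -2.06 and 1.07. In lysate 2 the same points were -0.05 for the middle gene, -0.66 and 0.46 for the quartiles, and -1.98 and 1.07 for the outer points. A gene at the 5% point thus had 4.16-fold fewer footprints per mRNA than an even share in lysate 1 and 3.95-fold fewer in lysate 2. At the 95% point the excess was 2.10-fold in lysate 1 and 2.09-fold in lysate 2. The standard deviation over genes was 1.13 in lysate 1 and 1.17 in lysate 2 on the log2 scale.

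Large deficits recurred in the other lysate more often than large excesses. A ratio of at least 2 was found for 1020 genes in lysate 1 and 1065 genes in lysate 2, and 434 genes (2.56%) had it in both. These are 42.5% of the genes of lysate 1 and 40.8% of those of lysate 2. A deficit of at least 2-fold was found for 2934 genes in lysate 1 and 2789 genes in lysate 2, and 1969 genes (11.6%) had it in both, which are 67.1% and 70.6% of these lists. At 8-fold, 390 genes were poor in lysate 1 and 381 in lysate 2, and 299 were poor in both lysates. Only 5 genes were rich in lysate 1 and 3 in lysate 2, too few to compare recurrence. Of these, 2 genes, Zm00001d042375 and Zm00001d031878, were rich in both. The counts in both lysates depended on scaling and filter, with 39 genes rich and 4367 poor at 2-fold under actin scaling, 280 and 696 at a mean of at least 20 CPM and 879 and 5912 with no filter, though poor genes outnumbered rich genes each time. The difference between the recurrence of deficits and of excesses was not tested.

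The 1969 genes with a deficit in both lysates took up 2.73% and 2.81% of the footprints in lysates 1 and 2, against 16.7% and 18.7% of the mRNA counts. The 434 genes with an excess in both held 5.09% and 4.84% of the footprints, against 2.01% and 1.95% of the mRNA counts. Without the identifiers that begin with GRMZM, described below, the genes with a deficit held 2.20% and 2.43% of the footprints, against 11.8% and 13.0% of the mRNA counts. The genes were chosen by this ratio, so these shares only describe their weight in the libraries.

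**Figure D1:**
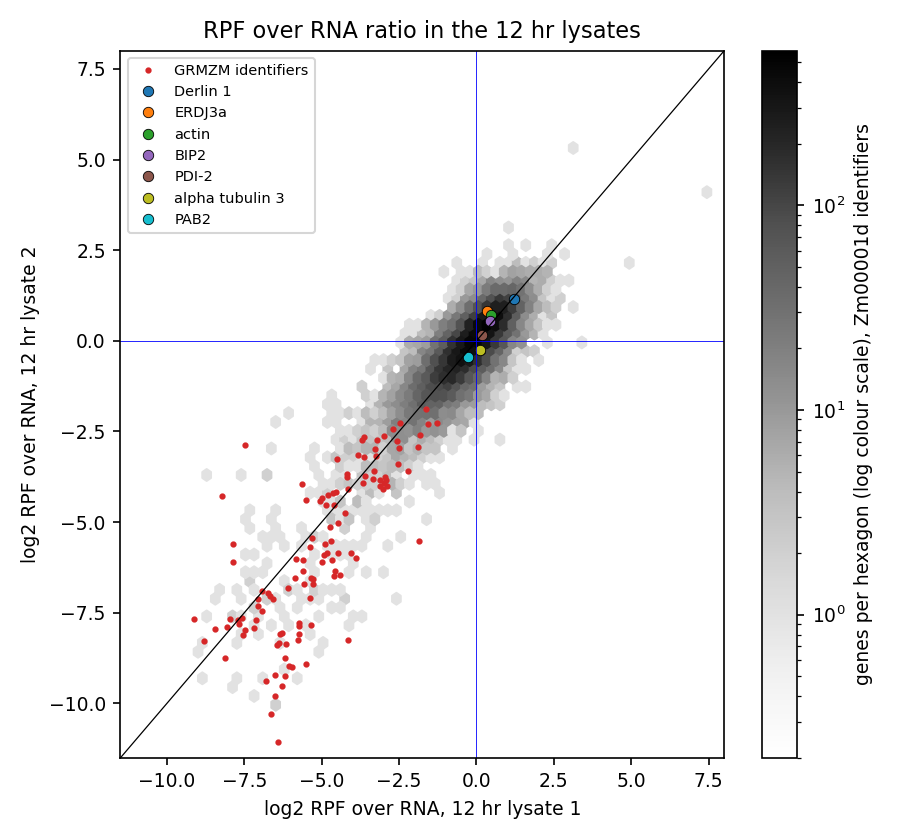
Log2 ratio of RPF to RNA (CPM, pseudocount of 0.5 counts) of the 16968 tested genes at 12 hr, lysate 1 on the x axis and lysate 2 on the y axis; grey hexagons give the number of Zm00001d genes, red points are the 117 GRMZM identifiers, large points are the named genes, and the diagonal marks equal ratios. The cloud reaches much lower than it reaches high, the GRMZM identifiers fill much of its lower end, and Derlin 1 lies near its upper edge.

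Among genes with a known name, the 4 ER stress genes had ratios above 1 in both lysates, though with scaling to actin BIP2, PDI-2 and ERDJ3a were fitted below 1 without passing the test, and Derlin 1 was the richest in footprints. The order of the mean ratios of the 12 hr lysates was Derlin 1 at 2.27 ± 0.0641, ERDJ3a at 1.52 ± 0.357, actin at 1.51 ± 0.188, BIP2 at 1.42 ± 0.0791, PDI-2 at 1.12 ± 0.0136, alpha tubulin 3 at 0.961 ± 0.180 and PAB2 at 0.780 ± 0.0708 (SD, n = 2 lysates each). The values of ERDJ3a, actin and BIP2 in the lysates overlapped one another, so these neighbours did not differ beyond their spread. The lower value of alpha tubulin 3 and the higher value of PAB2 lay next to each other. These 7 genes are named because their locus identifiers were known in full. Intervals beside their ratios are exact 95% Clopper-Pearson intervals and cover counting error only.

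Derlin 1 (Zm00001d010368) is a membrane protein of ER-associated degradation, through which misfolded proteins leave the ER. It had 1088 and 3439 footprint counts in lysates 1 and 2, or 356 and 279 CPM, against 1068 and 605 mRNA counts, or 154 and 125 CPM. The ratio was 2.32 (2.13 to 2.52) in lysate 1 and 2.23 (2.04 to 2.43) in lysate 2. It stood above 96.7% of the tested genes in lysate 1 and 96.3% in lysate 2, the steadiest position of the 7 genes. The fitted log2 ratio was 1.18 with an SE of 0.21 (edgeR adjusted p = 0.000344). The call held under all 18 alternative settings in which it was computed, with log2 ratios from 0.59 to 1.25.

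BIP2 (Zm00001d014993) encodes a luminal HSP70, the major chaperone of the ER and a hallmark of the UPR. It had 10813 and 30627 footprint counts, or 3538 and 2484 CPM, against 18039 and 8131 mRNA counts, or 2596 and 1684 CPM. Maize carries near-identical BiP genes, and reads that fit more than 1 copy may have been divided among them, so the counts of BIP2 are uncertain in that respect. The ratio was 1.36 (1.33 to 1.40) in lysate 1 and 1.47 (1.44 to 1.51) in lysate 2, above 76.5% and 79.7% of the tested genes. The fitted log2 ratio was 0.50 with an SE of 0.15 (edgeR adjusted p = 0.0125), but it was -0.09 with scaling to actin. The call was lost without lysate 1 (log2 ratio 0.56, edgeR adjusted p = 0.0941), without lysate 2 (0.45, edgeR adjusted p = 0.197) and without the replicate block (0.49, edgeR adjusted p = 0.187).

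ERDJ3a (Zm00001d047726) is a DnaJ-type partner of BiP. It had 1650 and 5681 footprint counts, or 540 and 461 CPM, against 2968 and 1257 mRNA counts, or 427 and 260 CPM. The ratio was 1.26 (1.19 to 1.34) in lysate 1 and 1.77 (1.66 to 1.88) in lysate 2, and the intervals did not overlap. Its position differed by 18.0 percentage points, above 71.6% of the genes in lysate 1 and 89.6% in lysate 2. The fitted log2 ratio was 0.58 with an SE of 0.16 (edgeR adjusted p = 0.0108), but it was -0.01 with scaling to actin. The call was lost without lysate 2 (log2 ratio 0.34, edgeR adjusted p = 0.374) and without the replicate block (0.54, edgeR adjusted p = 0.130).

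PDI-2 (Zm00001d005866), a protein disulfide isomerase that forms and rearranges disulfide bonds in the ER, was near an even share. It had 735 and 2275 footprint counts, or 240 and 185 CPM, against 1479 and 802 mRNA counts, or 213 and 166 CPM. The ratio was 1.13 (1.03 to 1.24) in lysate 1 and 1.11 (1.02 to 1.21) in lysate 2, above 63.4% and 59.7% of the genes. The fitted log2 ratio of 0.16 with an SE of 0.15 did not pass the test (edgeR adjusted p = 0.425), and it was -0.43 with scaling to actin.

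The remaining named genes are references rather than UPR genes. The cytoskeletal gene actin (Zm00001d013873) had 123 and 445 footprint counts, against 203 and 106 mRNA counts, the fewest of the 7. Its ratio was 1.38 (1.09 to 1.73) in lysate 1 and 1.64 (1.33 to 2.05) in lysate 2, with a fitted log2 ratio of 0.59 and an SE of 0.22 (edgeR adjusted p = 0.0421). That call was lost in 8 of 17 alternatives, among them leaving out lysate 1 (log2 ratio 0.72, edgeR adjusted p = 0.159) and leaving out lysate 2 (0.46, edgeR adjusted p = 0.397). PAB2 (Zm00001d005276), a poly(A)-binding protein that coats mRNA tails and takes part in initiation, had 611 and 2292 footprint counts, against 1673 and 1229 mRNA counts. Its ratio was 0.830 (0.756 to 0.912) in lysate 1 and 0.730 (0.681 to 0.783) in lysate 2, and the fitted log2 ratio of -0.36 with an SE of 0.14 did not pass the test (edgeR adjusted p = 0.0568).

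Alpha tubulin 3 (Zm00001d013367), a microtubule subunit, lay on different sides of 1 in the lysates. It had 1610 and 3738 footprint counts, against 3363 and 1756 mRNA counts. The ratio was 1.09 (1.03 to 1.16) in lysate 1 and 0.834 (0.787 to 0.883) in lysate 2, and the intervals did not overlap. Its position, above 60.8% of the genes in lysate 1 and 39.9% in lysate 2, moved by 20.9 percentage points, the most of the 7 genes. The fitted log2 ratio was -0.07 with an SE of 0.15 (edgeR adjusted p = 0.751), and without lysate 2 it was 0.12.

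**Figure D2:**
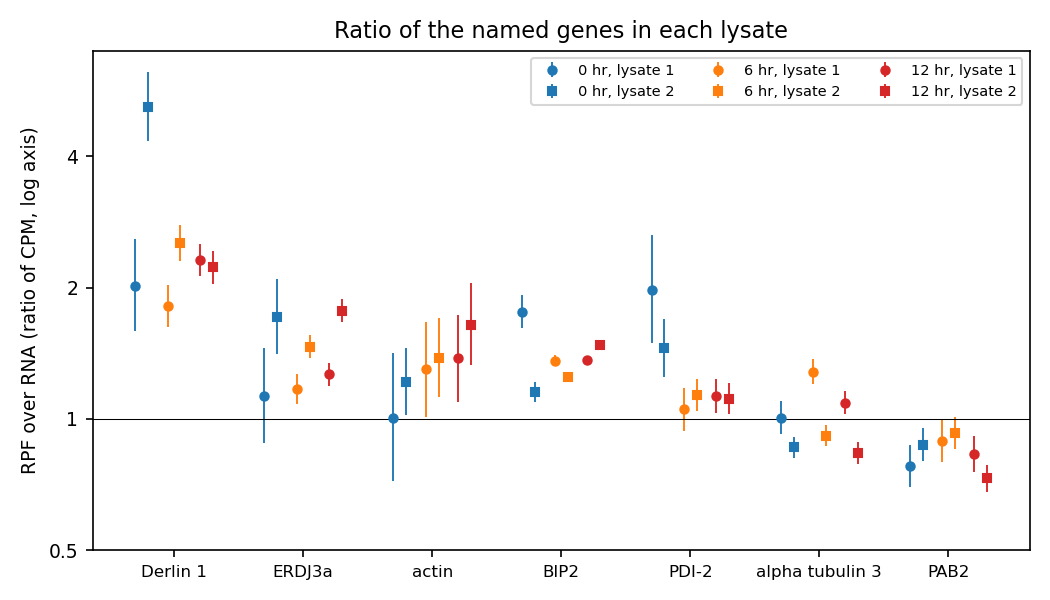
Ratio of RPF to RNA (CPM, log axis) of the 7 named genes in each lysate at 0, 6 and 12 hr, circles for lysate 1 and squares for lysate 2, with exact 95% intervals for counting error. Derlin 1 is the highest of the 7 in both 12 hr lysates, at 2.32 and 2.23, and PAB2 the lowest, at 0.830 and 0.730.

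At the ends of the ranking stood identifiers without a name, which were taken as the 2 highest and the 2 lowest by the lysate nearer to 1 among called genes that averaged 50 counts or more over the 4 libraries. Zm00001d042375 had 50 and 148 footprint counts in lysates 1 and 2, against 0 and 3 mRNA counts. In lysate 1 footprints were at least 37.9-fold higher than mRNA, taking 3 counts in that library as the floor, and in lysate 2 the ratio was 19.3 (6.48 to 94.7). The same identifier had few mRNA counts at the other times too, with none in the 0 hr lysates and 10 and 0 in those of 6 hr. Zm00001d031878 had 67 and 156 footprint counts, against 18 and 1 mRNA counts, with ratios of 8.46 (4.97 to 15.1) in lysate 1 and 61.1 (10.8 to 2428) in lysate 2. Both ratios rest on very few mRNA reads in lysate 2. Since these identifiers were picked by their ratio among called genes, their values are a description, with no test. Both passed the filter through their footprints, as their mRNA was below 5 CPM in each 12 hr lysate.

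The lowest identifiers, picked in the same way, had no footprints at 12 hr and passed the filter through their mRNA. Zm00001d039537 had 0 and 0 footprint counts, against 280 and 295 mRNA counts, so footprints were at least 41.0-fold lower in lysate 1 and at least 251-fold lower in lysate 2. Zm00001d040087 had 0 and 0 footprint counts, against 294 and 165 mRNA counts, at least 43.1-fold lower in lysate 1 and at least 140-fold lower in lysate 2. At 0 and 6 hr Zm00001d039537 had 3 footprint counts in all and Zm00001d040087 had 1.

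In all, 34 tested genes had no footprint in either 12 hr ribo-seq library, and 16 of these were GRMZM identifiers. Their mRNA counts, summed over both lysates, ran from 119 to 575 with a median of 185.5. Against the floor of 3 counts per library, the median bound was at least 13.7-fold lower in lysate 1 and at least 74.5-fold lower in lysate 2, the library with more footprints. With no footprints, these genes could pass the filter only through their mRNA. Their mRNA counts and bounds thus follow in part from the filter and from the ribo-seq depth. In the 4 ribo-seq libraries of 0 and 6 hr, 10 of the 34 again had no count, and the highest sum was 6. No tested gene had 0 mRNA counts in both lysates.

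Identifiers that begin with GRMZM are named as in an older maize annotation. No annotation used here says what each of them encodes, or whether it is a nuclear or an organelle gene. The GRMZM identifiers stood out as a block with few footprints. All 174 had a count at 12 hr. Footprint CPM was below mRNA CPM in both lysates for 173 (99.4%), and the remaining identifier had no count in 1 lysate. Among the 33080 Zm00001d identifiers with a count, 14307 (43.2%) were lower in both lysates. None of the 174 was higher in footprints in either lysate.

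The 117 GRMZM identifiers that reached 5 CPM were all called poor. Of these, 69 had a mean footprint level under 5 CPM and so passed the filter through their mRNA, and the other 48 averaged at least 5 CPM in ribo-seq itself. Their log2 ratio had a median of -5.27 in lysate 1 and -5.99 in lysate 2. No footprint was counted for 22 of them in lysate 1 and 21 in lysate 2, where the pseudocount sets the value, and with these at the floor of 3 counts the medians were -4.58 and -5.86. Those with a footprint ran from -8.11 to -1.29 in lysate 1 and from -10.30 to -1.88 in lysate 2. For the 16851 tested Zm00001d identifiers the median was -0.09 in lysate 1 and -0.04 in lysate 2. The GRMZM identifiers made up 95 of the 299 genes with a deficit of at least 8-fold in both lysates (31.8%), against 117 of all 16968 tested genes.

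The GRMZM identifiers summed to 0.536% of footprints in lysate 1, against 4.91% of mRNA counts, a 9.15-fold lower share. In lysate 2 they summed to 0.381% of footprints, against 5.77% of mRNA counts, a 15.1-fold lower share. The same deficit was present at the other times, 7.67-fold and 11.1-fold in the 0 hr lysates and 7.56-fold and 12.5-fold in those of 6 hr. In each pair of lysates the footprint share was lower in lysate 2, which had the deeper ribo-seq library each time. Whether depth has a part in this was not tested.

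**Figure D3:**
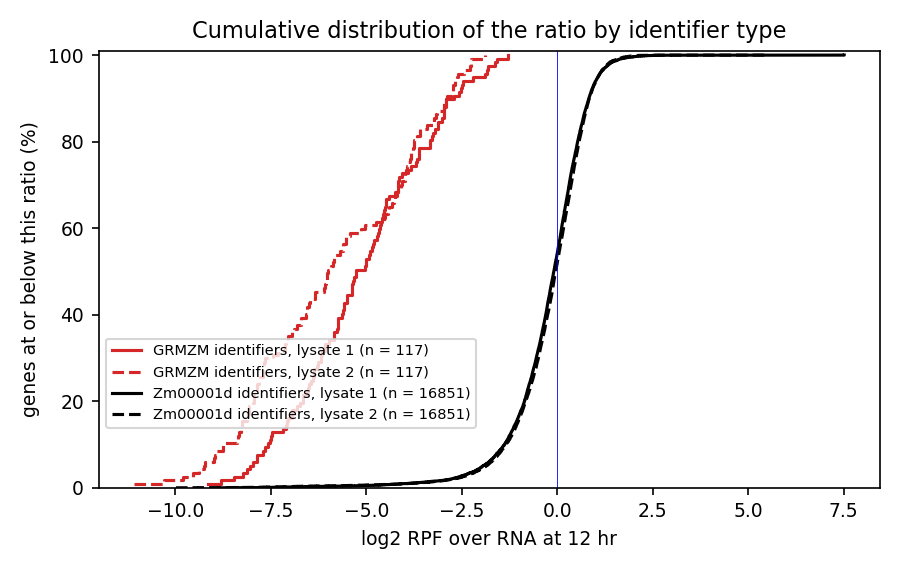
Cumulative share of tested genes (y axis, %) at or below each log2 ratio of RPF to RNA at 12 hr (x axis), for 117 GRMZM identifiers in red and 16851 Zm00001d identifiers in black, solid for lysate 1 and dashed for lysate 2. The GRMZM curves lie wholly below 0, with medians of -5.27 and -5.99 at a pseudocount of 0.5 counts, and the Zm00001d curves are centred at -0.09 and -0.04.

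The ranking of genes by the ratio was shared between the 12 hr lysates in large part. Across the 16968 genes the log2 ratios of lysates 1 and 2 correlated with a Spearman correlation of 0.788 and a Pearson r of 0.859, as a description across genes, which are not independent replicates and whose ratios share the 4 libraries. The ratio lay on the same side of 1 for 13680 genes (80.6%). Genes with a clear contradiction were few: 56 were at least 1.5-fold rich in lysate 1 and at least 1.5-fold poor in lysate 2, and 42 showed the reverse. The GRMZM identifiers contributed little to the correlation, which was 0.784 over the 16851 other genes.

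Positions moved more than sides did. The percentile rank of a gene differed between the lysates by a median of 9.61 percentage points, 51.3% of the genes moved by at most 10 points, and 1 in 10 moved by more than 31.6 points. The median difference of the log2 ratio was 0.327, or 1.25-fold, where counting error alone would give 0.18. Of the 1696 genes in the highest decile of lysate 1, 850 (50.1%) were in the highest decile of lysate 2. For the lowest decile, 1139 (67.2%) were shared. The bottom of the ranking therefore recurred more than the top, a difference that was not tested.

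A gene chosen in 1 lysate kept its direction in the other, at a smaller size. The highest decile of lysate 1 began at a log2 ratio of 0.83 and had a median of 1.07 there, and its median in lysate 2 was 0.84. In lysate 2, 93.4% of these genes were above 1, against 47.7% of all genes. A ratio of at least 2 was reached by 34.7% of them in lysate 2, against 60.1% in lysate 1. Of all 16968 tested genes, 1065 reached it in lysate 2. The highest decile of lysate 2 had a median of 1.07 there and 0.83 in lysate 1, where 94.3% were above 1. The lowest decile of lysate 1 ended at -1.44 and had a median of -2.06 there and -1.79 in lysate 2. In lysate 2, 98.6% of that decile were below 1 and 83.1% were at least 2-fold poor. Of all 16968 tested genes, 52.3% were below 1 and 2789 were at least 2-fold poor in lysate 2. The lowest decile of lysate 2 had a median of -1.98 there and -1.87 in lysate 1, where 98.3% were below 1.

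Agreement rose with mean CPM. Genes were ordered by their mean CPM over the 4 libraries, which is not corrected for coding length, and divided into quintiles. In order from the lowest to the highest quintile, the Spearman correlation between the lysates was 0.672, 0.746, 0.790, 0.833 and 0.864. The median difference of the log2 ratio narrowed over the same quintiles, being 0.57 in the lowest and 0.21 in the highest. Counting error made up 50.9% of the variance of the difference in the lowest quintile and 12.6% in the highest. In the highest quintile 44.3% of the genes differed between the lysates by more than 2 counting SE, against 20.4% in the lowest. For the 6134 genes that had 100 counts or more throughout the 4 libraries, the Spearman correlation was 0.801. That is below the 0.833 and 0.864 of the next-to-highest and highest quintiles. The median difference of the log2 ratio for these 6134 genes was 0.22.

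**Figure D4:**
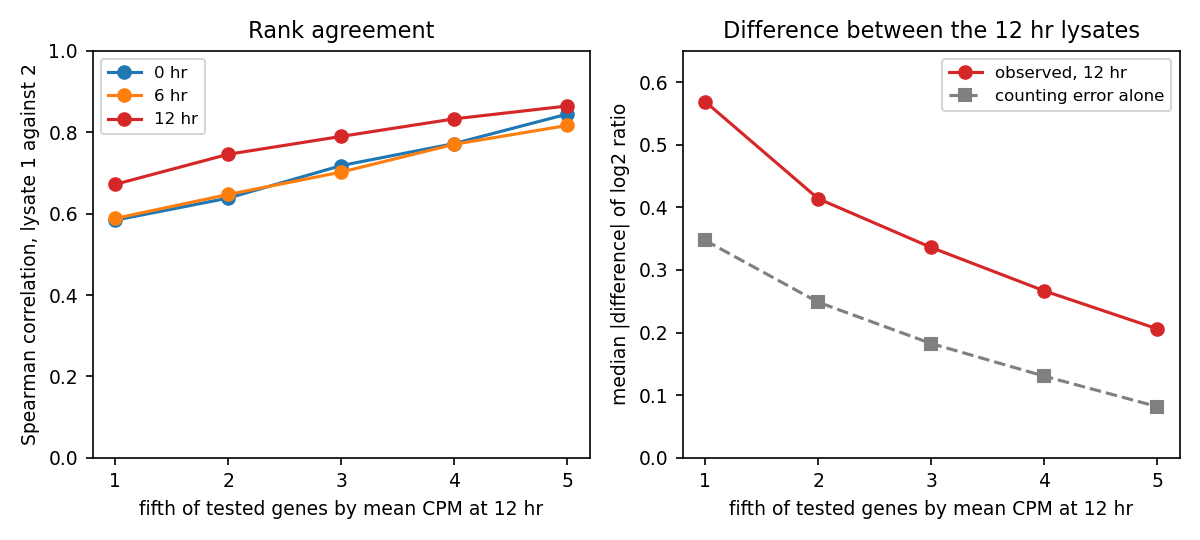
Left, Spearman correlation of the log2 ratio between lysates 1 and 2 (y axis) in quintiles of the tested genes by mean CPM at 12 hr (x axis, lowest to highest) for 0, 6 and 12 hr. Right, median absolute difference of the log2 ratio between the 12 hr lysates and the value counting error alone would give. The 12 hr correlation runs from 0.672 to 0.864 and lies above those of 0 and 6 hr in every quintile, and the observed difference lies above counting error in every quintile.

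The ratio also differed along these quintiles. Its median log2 value in order from the lowest to the highest quintile was -0.46, -0.29, -0.15, 0.02 and 0.27 in lysate 1 and -0.46, -0.27, -0.10, 0.09 and 0.36 in lysate 2. Mean CPM includes the footprints themselves, so genes were also ordered by the mRNA CPM of the other lysate, which does not enter the ratio. The medians were then -0.07, -0.28, -0.19, -0.06 and 0.09 in lysate 1 and -0.17, -0.23, -0.11, 0.05 and 0.22 in lysate 2. In that ordering the lowest point was the next-to-lowest quintile in both lysates, and across all genes the Spearman correlation was 0.060 in lysate 1 and 0.153 in lysate 2.

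The 12 hr ranking depended on the pairing within a lysate. When the footprints of each 12 hr lysate were divided by the mRNA of the other, the Spearman correlation was 0.563, against 0.788 within lysates, the shared highest decile was 30.0% and the shared lowest decile 56.0%. The median difference of the log2 ratio was then 0.504. At 0 hr the correlation was likewise lower when crossed, 0.487 against 0.709, but at 6 hr crossing changed little, 0.703 against 0.714. Across genes, the difference between the ribo-seq duplicates correlated with that between the RNAseq duplicates at r = 0.448 at 12 hr, with r = 0.376 at 0 hr and r = 0.0356 at 6 hr.

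The 12 hr lysates agreed more closely than those of the other times. The Spearman correlation between duplicates was 0.709 for 0 hr, 0.714 for 6 hr and 0.788 for 12 hr lysates. The shared highest decile was 42.7%, 47.1% and 50.1% in the same order, the shared lowest decile 59.1%, 58.2% and 67.2%, and the median difference of the log2 ratio 0.42, 0.43 and 0.33. The genes were those that passed the filter on 12 hr levels. With 1 pair of lysates at each time this difference between times has no replicate check, and the libraries also differed in depth, with totals between 1667094 and 12328304 over the series. The part of depth was not tested.

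Lysates of different times were about as alike as duplicates, which correlated at 0.709 for 0 hr, 0.714 for 6 hr and 0.788 for 12 hr. Single 12 hr lysates correlated with 0 hr lysates at a Spearman correlation of 0.704 to 0.771 and with 6 hr lysates at 0.730 to 0.834. The highest of these, between lysate 2 of 12 hr and lysate 2 of 6 hr, was above the 0.788 between the 12 hr duplicates. Means of 2 lysates correlated at 0.829 between 12 and 0 hr and at 0.883 between 12 and 6 hr.

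**Figure D5:**
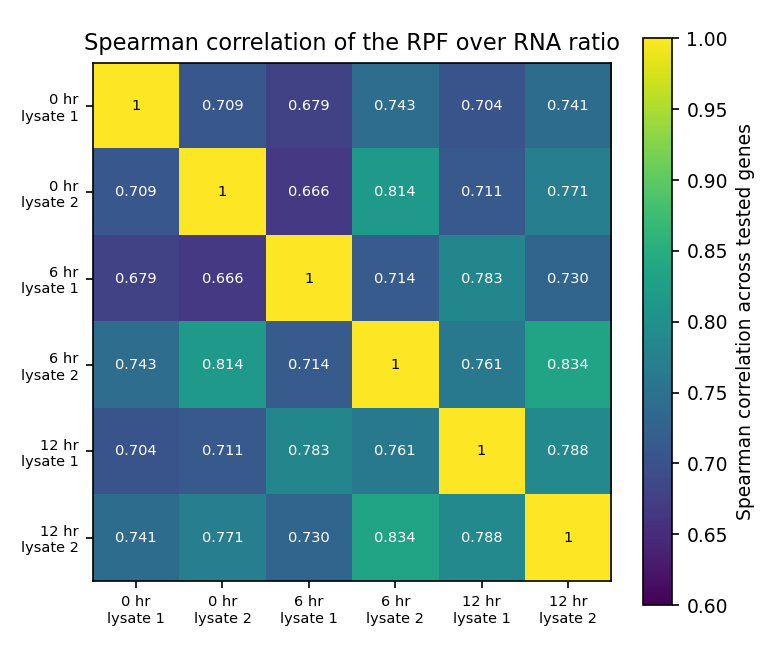
Spearman correlation of the log2 ratio of RPF to RNA across the 16968 tested genes for each pair of the 6 lysates, named by time and lysate on both axes, with the colour scale starting at 0.6. The 12 hr duplicates reach 0.788, and lysate 2 of 12 hr and lysate 2 of 6 hr reach 0.834.

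Genes rich or poor after 12 hr of TM were mostly so in the other roots. Of the genes rich at 12 hr, 2035 were also among the 2850 rich at 0 hr, which is 74.0% of the 12 hr list and 71.4% of the 0 hr list. Of the poor genes, 2521 were among the 3518 poor at 0 hr, 73.5% of the 12 hr list and 71.7% of the 0 hr list. With 6 hr, 2065 rich genes were shared (75.1% of the 12 hr list and 80.1% of the 6 hr list) and 2778 poor genes (80.9% and 74.4%). Over all 16968 tested genes, 2850 were rich and 3518 poor at 0 hr, and 2578 were rich and 3735 poor at 6 hr. At 12 hr the shares were 16.2% rich and 20.2% poor. The lists came from 1 fit that shares its estimate of spread over the times, so they are not independent. No gene was called in opposite directions at 12 hr and at another time. Of the 434 genes with an excess of at least 2-fold in both 12 hr lysates, 423 (97.5%) were above 1 in both 0 hr lysates and 420 (96.8%) in both 6 hr lysates, against 36.2% and 32.6% of all tested genes. An excess of 2-fold in both lysates was present for 228 (52.5%) of them in 0 hr roots and 241 (55.5%) in 6 hr roots, against 3.68% and 2.90% of all genes. Of the 1969 with such a deficit, 1873 (95.1%) and 1936 (98.3%) were below 1 in both lysates of 0 and 6 hr, against 41.2% and 44.4% of all genes, and 1339 (68.0%) and 1471 (74.7%) were 2-fold poor in both, against 11.7% and 12.5%.

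No gene passed a test of a change of the ratio between times. In the edgeR quasi-likelihood test of the interaction of library type with time, 0 of 16968 genes (0%) passed for 12 against 0 hr, with a smallest adjusted p of 0.673 and 938 genes (5.53%) at an unadjusted p under 0.05. For 12 against 6 hr 0 genes (0%) passed, with a smallest adjusted p of 1 and 328 genes (1.93%) at an unadjusted p under 0.05. DESeq2 and limma voom called 0 genes in either comparison, with 501 and 1147 genes at an unadjusted p under 0.05 for 12 against 0 hr, and 126 and 461 for 12 against 6 hr. With scaling to actin, edgeR again called 0 genes, but 2833 genes had an unadjusted p under 0.05 for 12 against 0 hr (smallest adjusted p = 0.152), and the median change of the log2 ratio was -0.46, against -0.02 with column totals. For 12 against 6 hr that scaling gave 279 genes at an unadjusted p under 0.05. Scaling to actin fixes actin itself at 0. With column totals the log2 ratio of actin changed by 0.42 between 12 and 0 hr (SE 0.31, edgeR adjusted p = 0.930). Actin had 96 footprint and 59 mRNA counts in lysate 1 of 0 hr. With 2 lysates a time, the lack of calls does not show that ratios were equal.

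For the 4 named UPR genes, footprint and mRNA levels in both 12 hr lysates lay above those in both 0 hr lysates, a change of level that was not tested here, while the ratio itself was not called different. BIP2 had footprint levels of 611 and 580 CPM in the 0 hr lysates, 3179 and 2658 CPM after 6 hr and 3538 and 2484 CPM after 12 hr, and mRNA levels of 348 and 504 CPM, 2337 and 2128 CPM, and 2596 and 1684 CPM. Its ratios in the 0 hr lysates were 1.76 and 1.15, those of 6 hr 1.36 and 1.25 and those of 12 hr 1.36 and 1.47, and all 4 later values lay between the 2 values of 0 hr. The change of the log2 ratio between 12 and 0 hr was 0.00 with an SE of 0.21 for BIP2 (edgeR adjusted p = 1), and -0.44 with scaling to actin (SE 0.34, edgeR adjusted p = 0.476).

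For Derlin 1 the 0 hr lysates had ratios of 2.02 and 5.19, those of 6 hr 1.82 and 2.52 and those of 12 hr 2.32 and 2.23. The 0 hr lysates lay further apart than those of the later times, on 91 and 142 mRNA counts. The change of the log2 ratio between 12 and 0 hr was -0.57 with an SE of 0.32 (edgeR adjusted p = 0.913), and -0.99 with scaling to actin (edgeR adjusted p = 0.255). For PDI-2 they were 1.97 and 1.45 in 0 hr lysates, 1.05 and 1.13 in 6 hr lysates and 1.13 and 1.11 in 12 hr lysates, so both 0 hr lysates lay above all 4 later ones. Its change between 12 and 0 hr was -0.56 with an SE of 0.23 (edgeR adjusted p = 0.892), and -0.996 with scaling to actin (edgeR adjusted p = 0.242). For ERDJ3a they were 1.13 and 1.72 in 0 hr lysates, 1.17 and 1.46 in 6 hr lysates and 1.26 and 1.77 in 12 hr lysates, and lysate 2 was the higher of the pair each time. The change for ERDJ3a between 12 and 0 hr was 0.08 with an SE of 0.26 (edgeR adjusted p = 0.985). With scaling to actin it was -0.35 (edgeR adjusted p = 0.497).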

How the data were processed

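The authors deposited 1 table of gene counts: whole-number counts of RPF or RNA reads on coding sequences of B73 RefGen_v4, with no normalization, for 12 libraries. Per the submitters' processing notes, the tools were FastQC, cutadapt 1.16, Bowtie 1.2 and SAMtools, and by the methods reads were checked, trimmed, aligned and then counted from the sorted alignments in that order. Reads of near-identical genes cannot be told apart, and reads are not independent molecules: the random bases at the read ends were trimmed, and no removal of PCR duplicates is described in the sources used here. No column was left out (0 columns of per-sample values not used). Of the identifiers, 0 matched the RefSeq gene table, so gene names come only from the study's text and no gene lists by function were counted.

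Counts were divided by the column total (CPM, per 1e+06 counts). Per-lysate log2 ratios used a pseudocount of 0.5 counts scaled to the library size. Genes with a mean of at least 5 CPM over the 4 libraries of 12 hr were tested with edgeR 4.0.16 (R 4.3.3; quasi-likelihood F-test, two-sided, common biological coefficient of variation 0.163) over all 12 libraries, with the lysate and the library type within each time as terms. All 12 libraries share the estimate of spread, since the 4 of 12 hr leave too few degrees of freedom. Actin scaling, TMM, other filters, DESeq2 1.42.0, limma 3.58.1 voom and leaving out lysates were tried as alternatives. The scripts were tested on simulated data. The replicate block rests on the methods, which take RPF and RNA from 1 lysate; duplicate differences in ribo-seq and RNAseq correlated across genes at 0.376 (0 hr), 0.0356 (6 hr) and 0.448 (12 hr). Duplicate libraries differed by more than sampling noise (chi-square per degree of freedom of 12.8 in ribo-seq and 11.5 in RNAseq at 12 hr).

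Named genes were the 7 loci whose full identifier the study gives, plus the 2 highest and 2 lowest identifiers by the lysate nearer to 1 among called genes that averaged 50 counts or more with both lysates on the same side. The members, lists and tests were chosen with earlier results of these data known.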

Additional observations from a re-analysis of the deposited data

How the results depend on the processing

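With actin scaling the counts were 293 rich and 7514 poor, and 39 and 4367 at 2-fold in both lysates, so rich genes were 3.75% of the calls, against 44.5% with column totals. Actin itself is then fixed at 0, and BIP2 (-0.086), PDI-2 (-0.43) and ERDJ3a (-0.0089) turned below 0. The other scalings moved the median by at most 0.07 on the log2 scale. Without the replicate block, that is unpaired, 1717 genes were rich and 2557 poor, and 1717 and 2554 of them were among those called with it. With a mean of at least 20 CPM, 2471 were rich and 1759 poor (58.4% of calls rich), 280 and 696 were 2-fold in both lysates, the Spearman correlation was 0.840, the shared lowest decile 73.7% and the median difference 0.254. With no filter on low counts, 879 and 5912 genes were 2-fold in both lysates, the Spearman correlation was 0.519, the shared highest and lowest deciles 32.6% and 46.0% and the median difference 0.593. With filterByExpr, the Spearman correlation was 0.693 and the deciles 43.9% and 53.5%. With crossed lysates, the Spearman correlation was 0.563, the deciles 30.0% and 56.0% and the median difference 0.504. Leaving out 1 lysate gave 934 to 2934 rich and 1380 to 3671 poor genes. The lowest counts came without lysate 2 of 12 hr, and without lysate 1 of 12 hr there were 1110 rich and 1619 poor. The lone lysate is then assumed to vary like those of the other times. Alpha tubulin 3 ran from -0.26 to 0.12 when a lysate was left out.

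DESeq2 with column totals called 2187 rich and 2761 poor, with its own size factors 2626 and 2533, and limma voom called 3238 and 4073. The 4 libraries of 12 hr alone gave 3513 and 4377. Totals and genes without GRMZM identifiers, an alternative chosen after seeing the data, gave 2353 and 3746. Of 191 values of the named genes and identifiers under alternatives, 167 kept direction and call, 13 lost the call, 7 gained it and 4 turned. PAB2 passed the test in 6 of its 18 alternatives. Measures that need both 12 hr lysates have no value with 1 left out. In the lowest quintile of genes by CPM, counting error computed from the counts made up 50.9% of the variance between lysates. Actin scaling of the comparison of times, also chosen after seeing the data, called 0 genes, as column totals did.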
